A study of Saccharomyces cerevisiae with 236 samples.

Results

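The 6 deletion strains described here each lack 1 gene of retrograde signalling or glutamate synthesis in Saccharomyces cerevisiae, namely RTG1 (YOL067C), RTG2 (YGL252C), RTG3 (YBL103C), GDH1 (YOR375C), GLT1 (YDL171C) and GLN3 (YER040W). They were picked by their systematic names out of 5179 deletion strains, covering 4993 genes, whose molecular tags (barcodes) were hybridised to 236 Affymetrix TAG4 arrays. Below, a gene symbol beside a tag level or a score stands for the strain that lacks that gene. Pools of 3 collections were grown for 5 generations, mostly in media short of 1 nutrient or with a drug, and the labels and methods give their genotypes. YKOaux is a set of homozygous deletion diploids of BY4743 that still carry auxotrophic markers (MATa/alpha, with both copies of his3Δ1, of leu2Δ0 and of ura3Δ0, and 1 copy each of lys2Δ0 and met17Δ0). PBprot is a haploid MATa collection (his3Δ1 leu2Δ0 met17Δ0 ura3Δ0) in which a single-copy plasmid, pHLUM, supplies HIS3, LEU2, URA3 and MET17, so its prototrophy depends on a plasmid that can be lost. BCprot is a haploid MATa collection (can1Δ::STE2pr-SpHIS5 his3Δ1 lyp1Δ0) made prototrophic by backcrossing and selection on minimal medium, a selection that strains with a growth defect there also went through.

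Synthetic complete medium (SC) was the control for minimal medium (MM, yeast nitrogen base and glucose), for MM with uracil (MM+URA, BCprot, 1 array) and for the dropout media, which are SC without adenine, arginine, glutamine, glycine, histidine, leucine, lysine, methionine, serine, threonine, tryptophan or uracil (ADE-, ARG-, GLN- and so on). YKOaux was not grown in HIS-, LEU- or URA-, and its MM carried histidine, leucine, lysine, methionine and uracil. YPD, the rich glucose medium, was the control for YPG (glycerol in place of glucose), for 200 µM cisplatin (CISPLATIN) and for YPD with 2% DMSO, and YPD+DMSO was the control for the uncouplers CCCP (32 µM) and FCCP (6 µM) and for the quinolone PYRQ (125 µM). Groups held 2 to 9 arrays, apart from MM+URA, and nothing in the labels ties a replicate number to a separate pool or starter culture, so the p-values measure the spread between these arrays, which may be partly technical. Another 15 arrays hold the pools before growth (T0). The number of arrays limits the precision of every value.

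Yeast cells with poorly working mitochondria turn on nuclear genes that keep up the supply of 2-oxoglutarate, a route known as retrograde signalling. Rtg1 and Rtg3 are the bHLH transcription factors that bind the target genes as a pair, and Rtg2 is the cytoplasmic regulator that releases them from inhibition by Mks1; strains without this route are known for needing glutamate or an amino acid close to it. Glutamate is made from 2-oxoglutarate and ammonium by the NADP-dependent glutamate dehydrogenase Gdh1, or from 2-oxoglutarate and glutamine by the glutamate synthase Glt1. Gln3 is the GATA factor that activates genes for using poorer nitrogen sources and for glutamine synthesis, and it is held back by Ure2 when good nitrogen is at hand.

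Each strain has an uptag and a downtag, and values below are deposited log2 intensities of 1 tag on 1 array. A tag's value is its abundance relative to the rest of the pool. The fitness defect (FD) score subtracts the value of a treatment array from the median of the control arrays, and is given as a median ± SD over the treatment arrays. A positive score therefore means that the strain was lower in the treatment, and a negative one that it was higher. A strain counted as lower when its FD score was at least 1 and its Benjamini-Hochberg adjusted p, from limma over all strains tested in that comparison, was under 0.05, and as higher when the score was at most -1 under the same adjusted p. A strain was tested only if at least 1 of its tags stood above the background threshold of a 2-component mixture in every control array, and between 3839 and 4363 strains were tested. One array stood apart in each SC set: SC replicate 1 separated from the other SC arrays on a first principal component that held 64.7% of the control variance in YKOaux, 73% in PBprot and 75.2% in BCprot, and 9 YPD and YPD+DMSO arrays of the YPD-based sets stood apart in the same way.

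Of the 6 strains, 5 were tested in each set, except in the SC set of BCprot, where 4 were. The RTG3 strain had no tag present in any collection. Its uptag lay at 7.35, 7.64, 8.01 and 8.10 in the SC arrays of YKOaux, against a threshold of 7.40, so 1 of 4 arrays kept it out there, and in the YPD set 16 of 17 control arrays were above the threshold. In PBprot and BCprot the RTG3 uptag averaged 6.08 ± 0.29 (SD, n = 4) and 5.78 ± 0.55 (SD, n = 3) in SC, far under the thresholds of 7.98 and 7.34, so these pools gave no usable reading of the deletion. The RTG2 downtag was at 6.03 in SC replicate 1 of BCprot, against 8.84 and 8.22 in the other SC arrays, which left the strain untested in that set. RTG1 was read from its downtag in every set, because its uptag did not clear the threshold in every control array of any set.

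In MM the strains of the retrograde pathway and of glutamate synthesis gave 4 depletions. In PBprot, 2 of 5 tested strains were lower, RTG1 and RTG2, where 4.42% of all 4116 strains were lower. In YKOaux, 1 of 5 was lower, GLN3, against 0.986% of 4363 strains. In BCprot, 1 of 4 was lower, GDH1, against 0.7% of 4001 strains. The median FD score over the tested members was 0.44 in PBprot, 0.99 in YKOaux and 0.67 in BCprot, beside medians over all strains of -0.12, 0 and -0.06. None of the other comparisons with more than 1 treatment array put any of the 5 tested strains among the depleted ones.

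**Figure D1:**
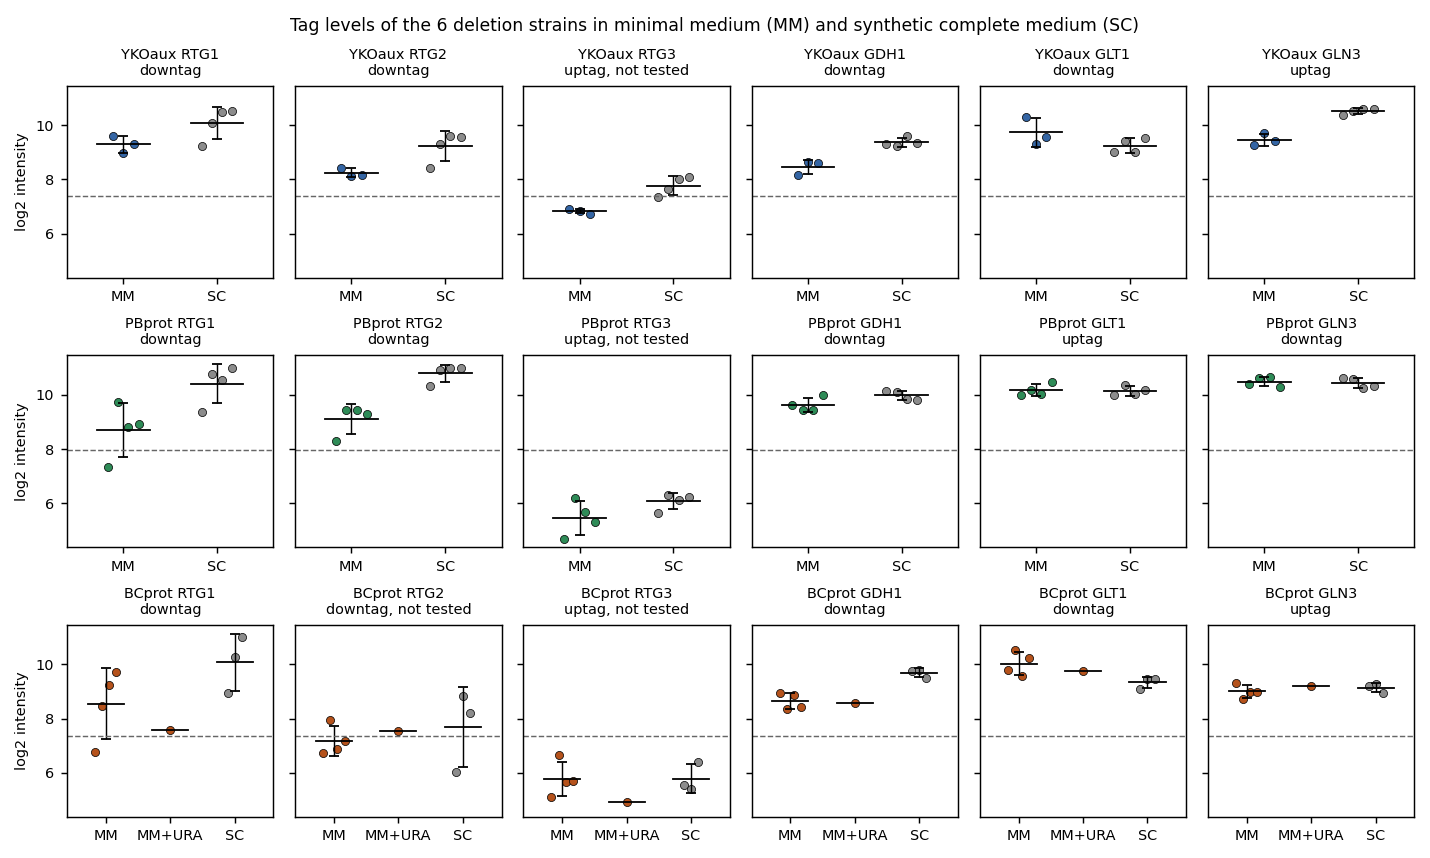
Log2 tag intensity (y axis) of each of the 6 deletion strains in every MM array (coloured points, left) and every SC array (grey points, right) of YKOaux (top row), PBprot (middle) and BCprot (bottom), with the mean and SD as lines and the background threshold dashed; BCprot also has its single MM+URA array. MM lies clear below SC for GLN3 in YKOaux, RTG2 in PBprot and GDH1 in YKOaux and BCprot, and also for the RTG3 uptag and, narrowly, RTG2 in YKOaux. For GLT1 in BCprot MM lies clear above SC. The RTG1 arrays overlap in all 3 collections.

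RTG1, a subunit of the DNA-binding pair, fell in MM in PBprot. Its downtag was at 7.32, 9.75, 8.83 and 8.92 in MM, against 9.37, 10.76, 10.54 and 11.01 in SC. The lowest SC array, replicate 1, lay below the highest MM array, so the groups overlapped by that array. The FD score was 1.77 ± 1.01 (mean difference 1.71, 95% interval 0.74 to 2.69, limma adjusted p = 0.0111). Without MM replicate 1 the adjusted p was 0.154, and without SC replicate 4 it was 0.0643, so the call rested on those arrays.

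In BCprot the same downtag was at 6.76, 8.46, 9.25 and 9.73 in MM, against 8.94, 10.27 and 11.03 in SC. Both groups spread more widely than the 1.53 between their means. The FD score of 1.41 ± 1.30 ranked 24th of 4001, but the strain was not called (limma adjusted p = 0.218). The MM+URA array was at 7.56, an FD score of 2.71, with no replicate. In BCprot without SC replicate 1 the adjusted p was 0.000217, on an FD score of 1.62 that was then read from the uptag, and without SC replicate 3 it was 0.0175. The uptag lay under the threshold of 7.34 in every MM array, so the size of the uptag score is not exact.

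In YKOaux RTG1 was at 9.61, 8.99 and 9.30 in MM, against 9.23, 10.09, 10.49 and 10.55 in SC, for an FD score of 0.99 ± 0.31 (limma adjusted p = 1). SC replicate 1 again sat among the MM values. Although the RTG1 uptag was too dim to be used, its groups did not overlap in any collection. It was at 6.12, 6.46, 6.03 and 6.92 in MM in PBprot, against 7.85, 7.25, 8.10 and 7.71 in SC. In BCprot it was at 6.62, 6.46, 5.99 and 6.56 in MM, against 7.32, 8.13 and 8.14 in SC. In YKOaux the uptag was at 6.46, 5.93 and 6.19 in MM, against 7.10, 6.90, 7.09 and 7.37 in SC. The dimmer tag was therefore lower in all 11 MM arrays than in any SC array of its own collection. These MM values all lay under the thresholds of 7.98 in PBprot, 7.34 in BCprot and 7.40 in YKOaux. How many other dim tags separate MM from SC in this way was not counted.

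RTG2, the upstream regulator, fell in MM in PBprot. The downtag was at 8.31, 9.43, 9.43 and 9.28 in MM, against 10.34, 10.93, 10.98 and 10.99 in SC. No MM array reached the lowest SC array, and the FD score was 1.61 ± 0.54 (mean difference 1.70, 95% interval 0.82 to 2.58, limma adjusted p = 0.00402). Its uptag was at 6.86, 7.27, 6.84 and 7.07 in MM, against 9.04, 9.05, 10.02 and 10.10 in SC, an FD score of 2.57 ± 0.20. All 4 MM values of the uptag lay under the threshold of 7.98, so the size of that score is not exact. The strain stayed called when any 1 of the 44 arrays of the set was left out.

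In YKOaux the RTG2 downtag was at 8.43, 8.13 and 8.18 in MM, against 8.44, 9.31, 9.62 and 9.57 in SC. All MM arrays were below all SC arrays, the nearest being the 2 arrays numbered 1, and the score of 1.26 ± 0.16 was not called (limma adjusted p = 0.901). In BCprot, where the strain was not tested, the downtag was at 6.71, 7.93, 6.88 and 7.17 in MM, against 6.03, 8.84 and 8.22 in SC. With presence judged from the mean over the SC arrays it gave an FD score of 1.19 ± 0.54 (limma adjusted p = 0.913).

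RTG3, the other subunit of the pair, could be followed in YKOaux alone and was not tested. Its uptag was at 6.90, 6.83 and 6.74 in MM, against 7.35, 7.64, 8.01 and 8.10 in SC, an FD score of 1.00 ± 0.08. The groups did not overlap, although all MM values were already below the threshold of 7.40, where further loss can hardly be seen. With presence judged from the mean over the SC arrays the limma adjusted p was 0.111.

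GDH1, the ammonium-assimilating dehydrogenase, fell in MM in BCprot. The downtag was at 8.94, 8.36, 8.87 and 8.43 in MM, against 9.76, 9.81 and 9.50 in SC. The groups were separated, the FD score was 1.11 ± 0.30 (mean difference 1.04, 95% interval 0.66 to 1.42, limma adjusted p = 5.77e-05), and the strain was 37th of 4001. The MM+URA array, at 8.56, gave an FD score of 1.20. The score sat just over the minimum of 1: it was 0.85 without SC replicate 1 (adjusted p = 0.475), then read from the uptag, 0.98 without SC replicate 3, and 0.89 without MM replicate 2 or MM replicate 4. The uptag gave 0.77 ± 0.42, with overlapping groups.

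In YKOaux GDH1 was at 8.16, 8.63 and 8.61 in MM, against 9.32, 9.23, 9.60 and 9.34 in SC. Again no MM array reached the SC arrays and the adjusted p was 0.000686 (limma), but the FD score of 0.72 ± 0.26 was under the minimum of 1, so the strain was not counted as lower. In PBprot it was at 9.63, 9.45, 9.43 and 10.01 in MM, against 10.15, 10.11, 9.84 and 9.83 in SC (FD score 0.44 ± 0.27, limma adjusted p = 0.296). There the groups overlapped, and the uptag score was -0.10.

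GLT1, the glutamate synthase, was not lower in MM in any collection. In BCprot its downtag was at 9.80, 10.53, 9.56 and 10.25 in MM, against 9.10, 9.45 and 9.48 in SC, so every MM array was above every SC array. The FD score was -0.57 ± 0.43 and the difference did not pass the test (95% interval of the mean difference -1.34 to -0.04, limma adjusted p = 0.631). In YKOaux the downtag was at 10.32, 9.31 and 9.59 in MM, against 9.01, 9.43, 9.02 and 9.55 in SC (FD score -0.37 ± 0.52, limma adjusted p = 1). In PBprot the uptag was at 10.01, 10.18, 10.04 and 10.49 in MM, against 10, 10.37, 10.03 and 10.18 in SC. That is an FD score of -0.01 ± 0.22, with a 95% interval of the mean difference from -0.49 to 0.42.

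GLN3, the nitrogen-responsive activator, fell in MM in YKOaux. The uptag was at 9.27, 9.72 and 9.41 in MM, against 10.37, 10.52, 10.61 and 10.59 in SC, and the groups were well separated. The FD score was 1.14 ± 0.23 (mean difference 1.06, 95% interval 0.47 to 1.64, limma adjusted p = 0.0362), 54th of 4363. The downtag, at 10.89, 10.70 and 10.66 in MM and 11.53, 11.88, 11.59 and 11.62 in SC, gave 0.91 ± 0.12. The call was lost when any 1 of the 4 SC arrays, MM replicate 1 or MM replicate 3 was left out, with scores between 0.90, read from the downtag without SC replicate 2, and 1.18, and adjusted p between 0.0168 and 0.29. In PBprot the downtag was at 10.42, 10.61, 10.67 and 10.29 in MM, against 10.64, 10.58, 10.27 and 10.33 in SC (FD score -0.06 ± 0.17). In BCprot the uptag was at 9.31, 8.72, 8.98 and 9.00 in MM, against 9.21, 9.26 and 8.95 in SC (FD score 0.22 ± 0.24). Neither of the prototrophic collections thus showed a change of the GLN3 strain beyond the spread of its arrays.

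**Figure D2:**
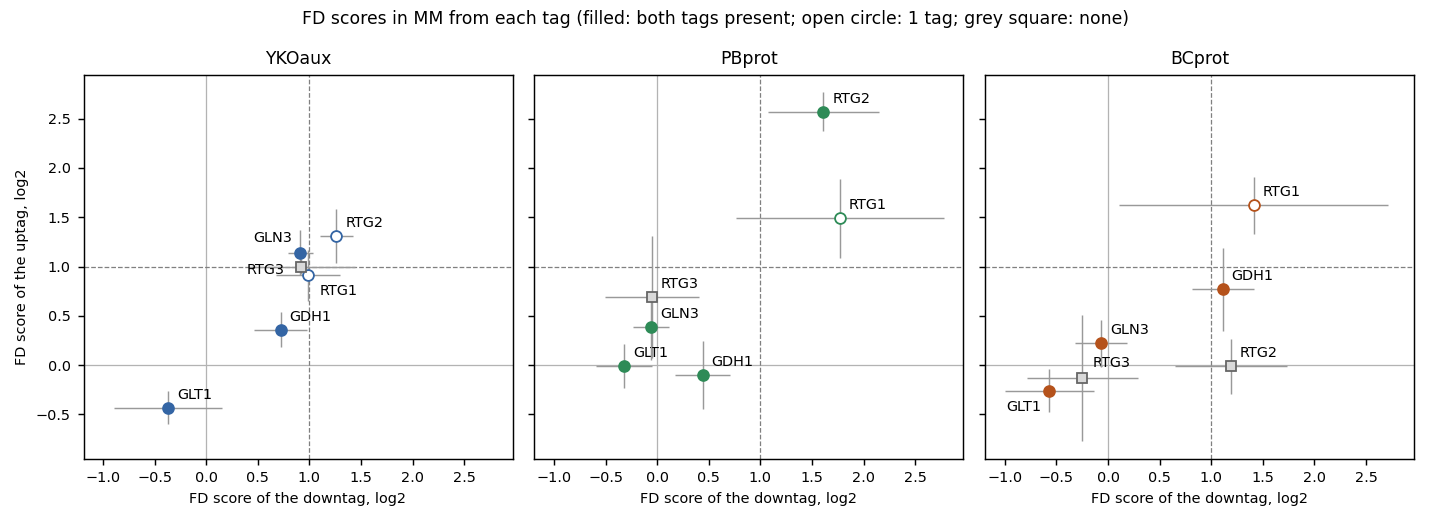
FD scores in MM read from the downtag (x axis) and from the uptag (y axis) of each strain, in log2 units, as median with SD bars, for the 3 collections; filled circles have both tags present in the SC arrays, open circles 1 tag, grey squares none, and dashed lines mark a score of 1. RTG2 in PBprot is past 1 by both tags (1.61 and 2.57, the second from MM values under the background threshold), GLN3 in YKOaux lies at 0.91 and 1.14, and GLT1 is at or below 0 by both tags in every collection.

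The RTG1 and RTG2 downtags varied with the replicate number of the SC-based media, in the dropouts as much as in SC. In PBprot the RTG1 downtag ranged over 8.70 to 9.71 in the 12 dropout arrays numbered 1 (median 9.16), 10.49 to 11.52 in those numbered 2 (median 11.04) and 9.81 to 10.69 in those numbered 3 (median 10.46). In YKOaux the medians were 9.42 over 9 arrays numbered 1, 10.64 over 8 numbered 2 and 10.66 over 10 numbered 3. All the replicate 1 dropout arrays of these collections were below all the others for this tag. RTG2 had the same order with more overlap, with PBprot medians of 10.48, 11.11 and 10.76 for the numbers 1, 2 and 3. In BCprot the split did not take in every medium. Its RTG2 downtag was at 5.94 to 7.36 in 8 replicate 1 arrays, but at 9.31 to 9.66 in the replicate 1 arrays of GLN-, GLY-, SER- and THR-. These 4 media had all 8 of their RTG2 values above the highest SC value of 8.84. What set the replicate 1 arrays apart was not tested.

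**Figure D3:**
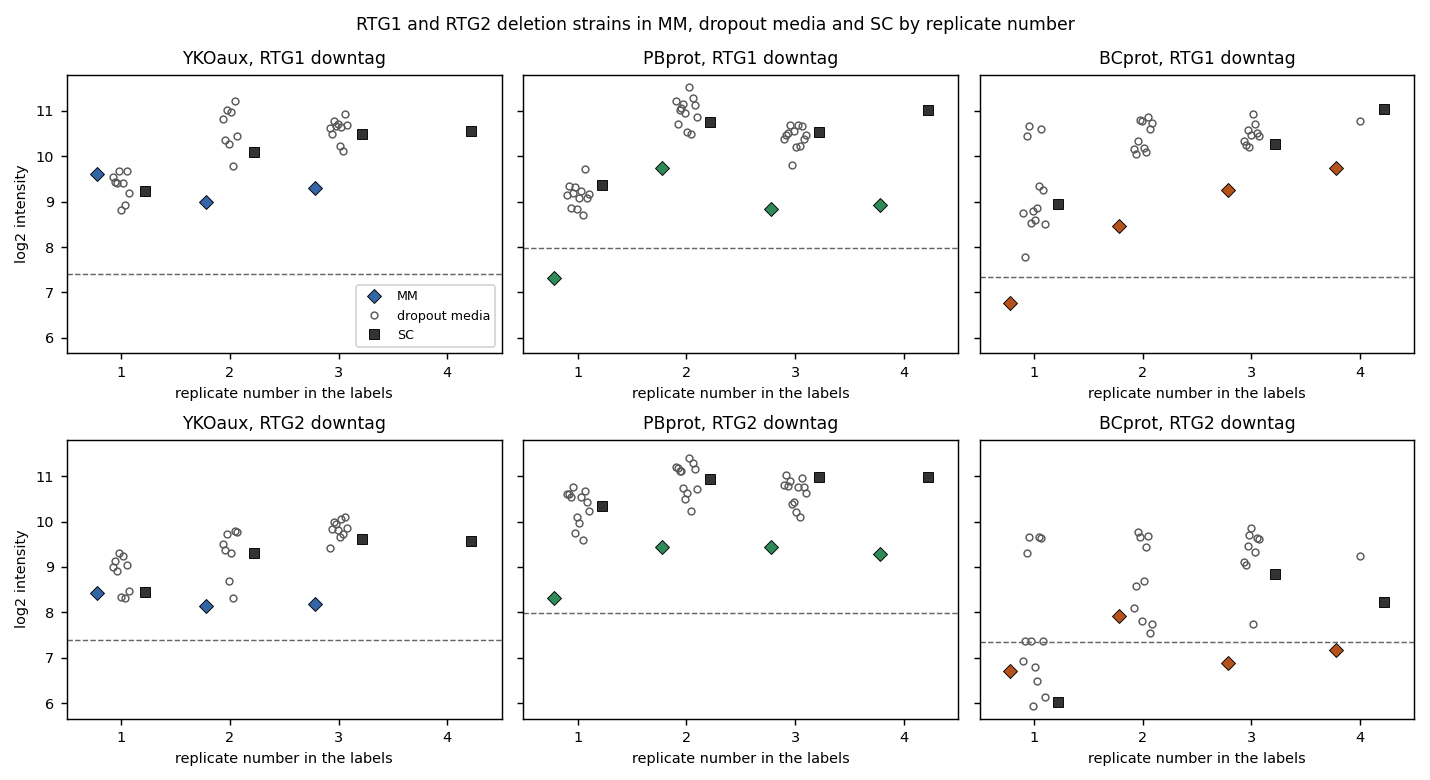
Log2 intensity of the RTG1 (top row) and RTG2 (bottom row) downtags in MM (diamonds), dropout media (open circles) and SC (squares), by replicate number in the labels, for the 3 collections, with the background threshold dashed. For RTG1, the PBprot and YKOaux arrays numbered 1 in SC and the dropouts lie about as low as the MM arrays of other numbers, while MM lies below the dropouts and SC of its own number in PBprot.

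Leaving out every replicate 1 array of the SC-based media moved the members in different ways. RTG1 and RTG2 remained called in PBprot MM, at 1.83 ± 0.51 (limma adjusted p = 0.000376) and 1.56 ± 0.09 (0.00301). In BCprot, where both strains were then read from the uptag against 2 SC arrays, RTG1 came to 1.68 ± 0.30 (0.000552) and GDH1 to 0.86 ± 0.51 (0.152). The RTG1 uptag lay under the threshold of 7.34 in every BCprot MM array, so the size of its score is not exact. GLN3 in YKOaux kept an FD score of 1.02 ± 0.22 with an adjusted p of 0.283, over 2 MM arrays.

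A difference between collections was tested directly, as the FD score of one collection minus that of another. For GLN3 in MM, PBprot minus YKOaux was -1.10 ± 0.22 (SE, 95% interval -1.53 to -0.66, limma adjusted p = 0.000279), where 5.11% of all 3715 strains differed. BCprot minus YKOaux was -0.92 for the same strain and did not pass (limma adjusted p = 0.52). For RTG1 and RTG2, PBprot minus YKOaux was 0.92 (95% interval -0.78 to 2.63) and 0.71 (95% interval -0.19 to 1.61), and both intervals include 0 as well as differences over 1. With the replicate number as a block they came to 1.08 (limma adjusted p = 0.00759) and 0.82 (0.0225). Whether these strains differ between the collections thus depends on the fit. The rule for pairing, a correlation over 0.1 in every pair of same-numbered MM and SC arrays, was missed in both collections. The correlations were 0.0905 to 0.772 in PBprot and -0.221 to -0.00977 in YKOaux. For GDH1, PBprot minus BCprot was -0.69 (limma adjusted p = 0.156) and BCprot minus YKOaux was 0.13 (95% interval -0.40 to 0.67). Over all media, 1 of 80 PBprot minus YKOaux differences, 1 of 70 BCprot minus YKOaux differences and 0 of 82 PBprot minus BCprot differences among the 5 strains had a limma adjusted p under 0.05, and 3 of each had an unadjusted p under 0.05. Over all strains the share with an adjusted p under 0.05 ran, by medium, from 0% to 5.11%, 0% to 0.972% and 0% to 2.88% in the same order.

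The score in MM was also set against the score in ADE-, ARG-, GLN- and LYS-. The SC arrays cancel in these contrasts, but the 4 contrasts of a collection share their MM arrays and are not separate tests. GDH1 differed between MM and each of the 4 dropouts in YKOaux, by 1.06 to 1.20 (limma adjusted p = 1.03e-05 to 0.000145), where 1.08% to 1.56% of all strains did. It also did so in BCprot, by 0.81 to 1.34 (adjusted p = 1.93e-06 to 0.00135), where 1.12% to 2.1% of all strains did. In PBprot RTG2 differed between MM and ADE- by 1.76, between MM and ARG- by 1.82 and between MM and GLN- by 1.70 (limma adjusted p = 0.00477 to 0.0106), beside 7.14% to 7.39% of all strains. RTG1 in BCprot differed between MM and LYS- by 1.64 (limma adjusted p = 0.0491). No pair of the 4 dropouts differed for any of the 5 strains at that threshold. The MM scores of GDH1 in YKOaux and BCprot, and of RTG2 in PBprot, were thus larger than the scores without glutamine alone.

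**Figure D4:**
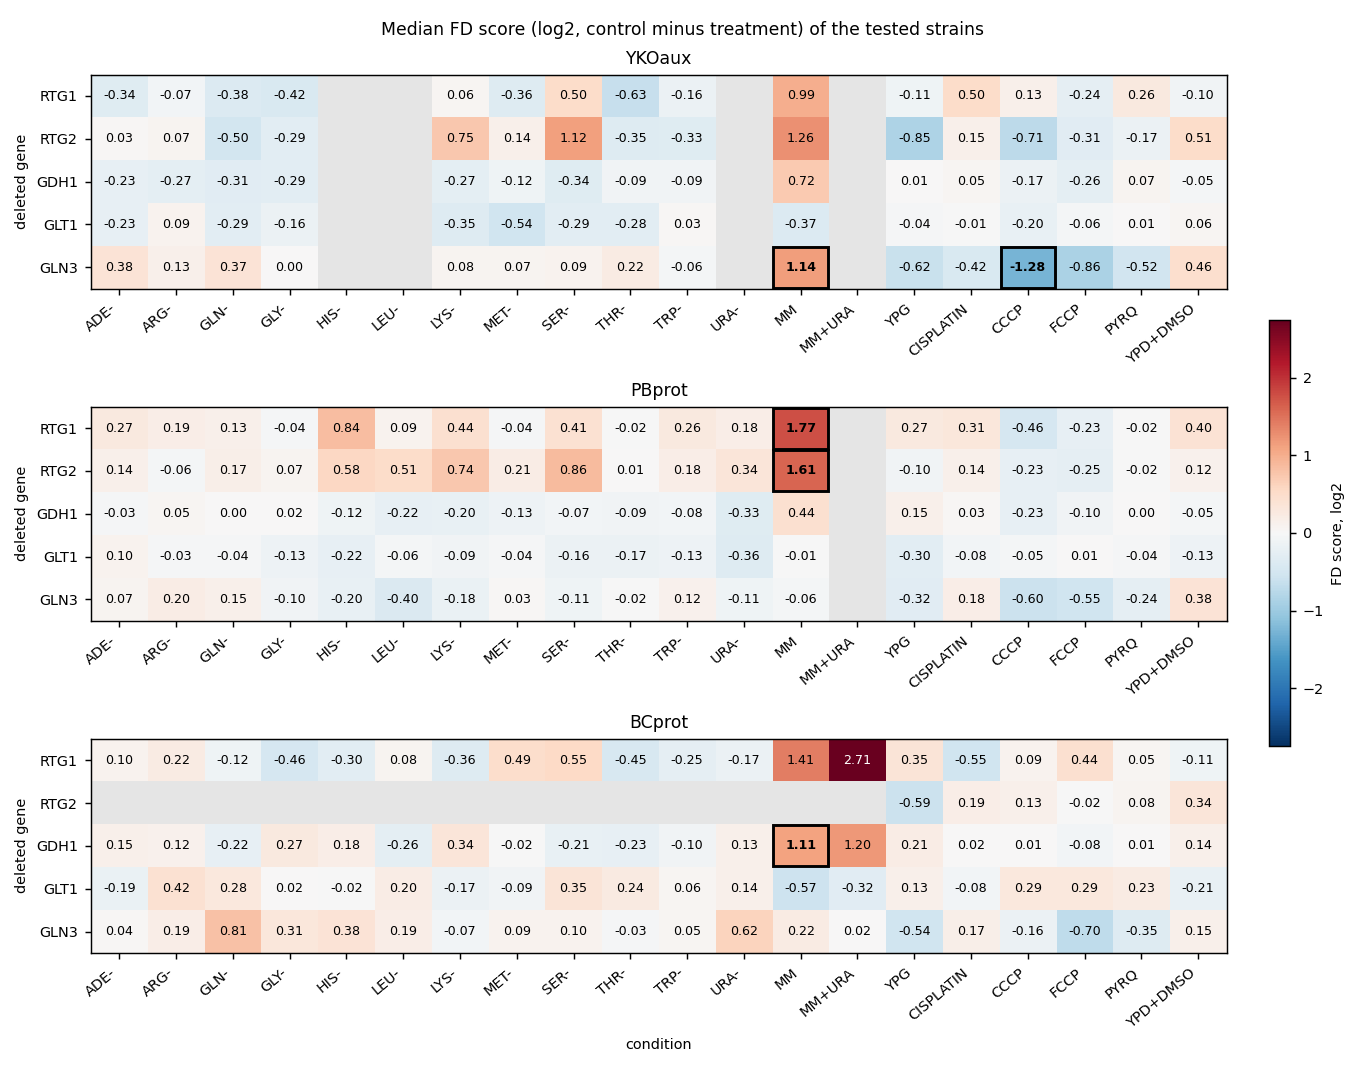
Median FD score (log2, control minus treatment, colour scale and printed value) of the 5 tested strains in every condition of YKOaux (top), PBprot (middle) and BCprot (bottom), with black frames around scores past 1 or -1 whose limma adjusted p is under 0.05 and grey where a strain was not tested or the medium not used; MM+URA is 1 array and carries no frame. The framed cells are RTG1 and RTG2 in PBprot MM, GLN3 in YKOaux MM, GDH1 in BCprot MM, and GLN3 in CCCP in YKOaux at -1.28.

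None of the strains was called by limma in a dropout medium, in 45 pairs of strain and medium in YKOaux, 60 in PBprot and 48 in BCprot, where 0.135%, 0.682% and 0.0396% of the pairs over all strains were lower. At an unadjusted p under 0.05 there were 0, 0 and 1 such pairs, the last being GLN3 in GLN-. GLN- lacks the amino acid that Glt1 uses and that Gln3 helps to supply. In it GLN3 was at 8.29 and 8.52 in GLN- in BCprot, against 9.21, 9.26 and 8.95 in SC (FD score 0.81 ± 0.16, limma adjusted p = 0.655). The score was 0.37 ± 0.35 in YKOaux and 0.15 ± 0.23 in PBprot, with intervals of the mean difference of -0.08 to 1.09 and -0.31 to 0.49. The titles give 2 of the 3 YKOaux GLN- arrays, and 2 of the 4 BCprot LYS- arrays, the same replicate number, and they were kept as separate samples although the labels do not settle it. GLT1 scored between -0.29 and 0.28 in GLN- and GDH1 between -0.31 and 0. No strain of the array was called in GLN- by limma in any collection, while 75 strains in YKOaux, 11 in PBprot and 290 in BCprot had an unadjusted p under 0.05. That fit took no account of the replicate numbers, which paired the PBprot GLN- arrays (correlations 0.509 to 0.848). With the replicate number as a block, 0 strains were called in GLN- in YKOaux and 0 in PBprot. In BCprot 3 were lower and 4 higher, none of them a member.

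The highest dropout scores among the members came from RTG2 in SER-, the medium without serine. Its downtag in SER- was at 8.32, 8.32 and 9.73 in YKOaux, against 8.44, 9.31, 9.62 and 9.57 in SC, and at 9.59, 10.24 and 10.10 in PBprot, against 10.34, 10.93, 10.98 and 10.99 in SC. The scores of 1.12 ± 0.81 and 0.86 ± 0.34 ranked 4th of 4363 and 7th of 4116 by size, but neither passed the test (limma adjusted p = 1 for both). Without the replicate 1 arrays the YKOaux score was 0.55 ± 1, over 2 SER- arrays at 8.32 and 9.73. With the replicate number as a block, which paired these arrays, the mean difference was 0.45. Without the block the YKOaux means were 9.23 in SC and 8.79 in SER-. The YKOaux rank, taken from the median, thus rested on the SER- arrays at 8.32. The PBprot score held, at 0.82 ± 0.10 without the replicate 1 arrays and a mean difference of 0.84 with the block, and was called in neither. In LYS- the scores were 0.75 ± 0.69 in YKOaux and 0.74 ± 0.33 in PBprot, which did not pass either. All 3 PBprot SER- arrays were below all SC arrays, while in YKOaux replicate 3 was above them. RTG1 ranged from -0.63 to 0.84 over the dropouts of the 3 collections, GDH1 from -0.34 to 0.34, GLT1 from -0.54 to 0.42 and GLN3 from -0.40 to 0.81.

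In the YPD-based media no member was lower, in 30 pairs of strain and medium per collection, where 1.19% of all pairs in YKOaux, 1.88% in PBprot and 0.569% in BCprot were, and at an unadjusted p under 0.05 there were 6, 4 and 3 pairs, all of them GLN3. GLN3 passed the threshold once, as a higher strain. In YKOaux its downtag was at 11.29, 11.14 and 11.28 in CCCP, against 9.49 to 10.54 with a median of 10.01 over 9 YPD+DMSO arrays. The FD score was -1.28 ± 0.08 (mean difference -1.27, 95% interval -1.62 to -0.92, limma adjusted p = 3.93e-09), the third lowest of 3929 strains. Of the 5 tested members 1 was higher, where 0.229% of all strains were. The uptag, at 10.11 to 10.38 in CCCP, against 8.09 to 9.01 in YPD+DMSO, gave -1.74 ± 0.15. The strain stayed called when any 1 of the 31 arrays of the set was left out, and it was at -1.20 without the control arrays that stood apart.

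With the other uncoupler, FCCP, the GLN3 downtag in YKOaux was at 10.75, 11 and 10.87, above all YPD+DMSO arrays, for an FD score of -0.86 ± 0.13 (limma adjusted p = 0.000112) that did not reach -1. Its uptag reached -1.47 ± 0.09. PYRQ gave -0.52 ± 0.13 (adjusted p = 0.513). In YPG the downtag was at 11.05 and 11.13, against 9.95 to 10.79 with a median of 10.47 over 8 YPD arrays (FD score -0.62 ± 0.05, limma adjusted p = 0.0549). YPD+DMSO itself set against YPD gave 0.46 ± 0.37 (adjusted p = 0.0517), so the control of the uncouplers was the medium in which this strain was lowest.

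In PBprot GLN3 was at 10.37, 10.12 and 9.76 in CCCP and at 10.07, 9.90 and 10.22 in FCCP, against 9.08 to 10.39 with a median of 9.52 over 8 YPD+DMSO arrays. The scores were -0.60 ± 0.31 (limma adjusted p = 0.0928) and -0.55 ± 0.16 (0.167). YPD+DMSO replicate 1, at 10.39, was the only control array above 9.57, and it belongs to the arrays that stood apart. Without that array and YPD replicate 1 the scores were -0.61 (limma adjusted p = 0.00985) and -0.56 (0.0212). In BCprot GLN3 was at 9.61, 9.92 and 9.09 in CCCP and at 9.35, 10.32 and 10.14 in FCCP, against 8.82 to 9.96 with a median of 9.44 over 7 YPD+DMSO arrays. The scores there were -0.16 ± 0.42 (adjusted p = 1) and -0.70 ± 0.52 (0.272), and YPG gave -0.54 ± 0.19 (limma adjusted p = 0.0332), under the minimum size.

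**Figure D5:**
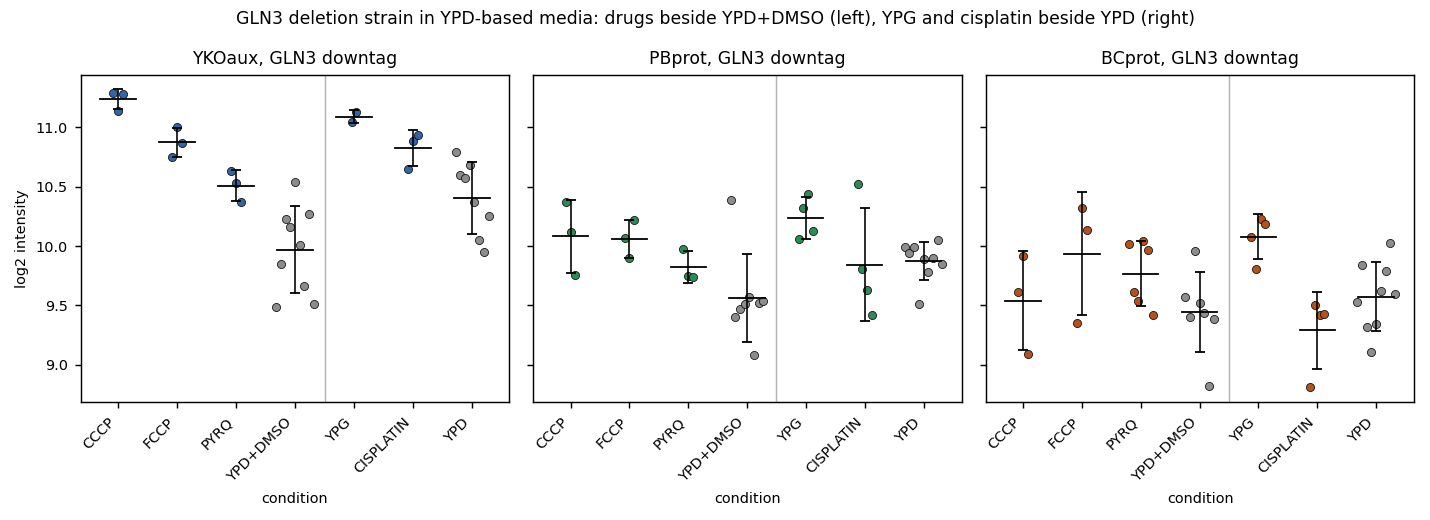
Log2 intensity of the GLN3 downtag (y axis) in each array of the YPD-based media in the 3 collections, with the mean and SD as lines; drugs (coloured) stand left of YPD+DMSO (grey), and YPG and CISPLATIN left of YPD (grey). All YKOaux arrays of CCCP and FCCP lie above all 9 YPD+DMSO arrays, while in BCprot the groups overlap.

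For CCCP the difference between collections was tested as well. BCprot minus YKOaux was 1.17 for GLN3 (95% interval 0.60 to 1.74, limma adjusted p = 0.0211), where 0.648% of 3396 strains differed. With the replicate number as a block, which did not pair these arrays, it came to 1.11 and no longer passed (limma adjusted p = 0.0791). PBprot minus YKOaux was 0.75 (adjusted p = 0.239). 

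The other members stayed between -0.85 and 0.51 in all YPD-based media. In YPG, which yeast can use only by respiration, the RTG1 downtag was at 10.38 and 10.49 in YKOaux, against 9.39 to 10.86 with a median of 10.32 over 8 YPD arrays. It was at 9.77 to 10.61 over 4 YPG arrays in PBprot, against 9.59 to 11.07 in YPD, and at 9.65 to 10.51 over 4 YPG arrays in BCprot, against 9.92 to 11.44 in YPD. RTG1 in YPG thus lay within or close to the spread of YPD, with FD scores of -0.11 ± 0.07, 0.27 ± 0.36 and 0.35 ± 0.38. GDH1 scored 0.01 ± 0.14, 0.15 ± 0.07 and 0.21 ± 0.27 in the same 3 collections. GLT1 scored -0.04, -0.30 ± 0.08 and 0.13 ± 0.08, and none of these passed the test. CISPLATIN gave the widest spread for RTG1, 0.50 ± 0.90 in YKOaux and -0.55 ± 0.24 in BCprot, and neither passed (limma adjusted p = 0.992 and 0.805).

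RTG2 in YKOaux had the lowest of these scores, -0.85 ± 0.10 in YPG, at 10.39 and 10.54 in YPG, against 8.86, 8.86, 9.00, 9.45, 9.78, 10.39, 10.55 and 10.68 in YPD. The highest 3 YPD values belong to the arrays that stood apart. Without them the score was -1.47 (limma adjusted p = 0.134).

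Other genes of the route were counted from lists of 5 retrograde regulators, 15 targets and enzymes towards 2-oxoglutarate, and 12 glutamate dehydrogenases and nitrogen regulators, all of them on the array. Among the regulators, 1 of 5 tested strains was lower in BCprot MM, 1 of 4 in PBprot MM and 0 of 4 in YKOaux MM, with list medians of -0.02, 0.17 and -0.04. The strain was MKS1 both times, which encodes the inhibitor that Rtg2 binds. It scored 2.27 ± 0.70 in PBprot (limma adjusted p = 1.24e-18) and 1.39 ± 0.41 in BCprot (0.000268). Strains without the activators RTG1 and RTG2 and without their inhibitor MKS1 were thus all lower in PBprot MM.

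Among the targets and enzymes, 1 of 12 tested strains was lower in BCprot MM, 0 of 12 in PBprot MM and 1 of 14 in YKOaux MM. PYC1, a pyruvate carboxylase, scored 1.77 ± 0.48 in BCprot (limma adjusted p = 1.43e-12), and ACO1, the mitochondrial aconitase, scored 2.65 ± 0.61 in YKOaux (2.56e-05). In YPG the citrate synthase CIT1 was lower in YKOaux (1.12 ± 0.15) and PBprot (1.11 ± 0.51). The isocitrate dehydrogenase subunit IDH1 was lower in PBprot (1.23 ± 0.62) and BCprot (1.13 ± 0.43) and its partner IDH2 in BCprot (1.91 ± 0.36). GRR1, a ubiquitin ligase subunit and 1 of 5 tested regulators, scored 1.77 ± 0.28 in BCprot YPG. In CISPLATIN the isocitrate dehydrogenase strain IDP1 was lower in YKOaux (1.42 ± 0.71), as 1 of 11 tested targets and enzymes. The 14-3-3 protein strain BMH2 was lower in PBprot CISPLATIN (1.06 ± 0.30), as 1 of 4 tested regulators. Over all strains 35 of 3929 and 42 of 4015 were lower in CISPLATIN in YKOaux and PBprot.

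Of the glutamate dehydrogenases and nitrogen regulators, none of 12, 11 and 12 tested strains was lower in MM in BCprot, PBprot and YKOaux. URE2, which encodes the protein that holds back Gln3, was higher in YKOaux MM at -1.07 ± 0.11 (limma adjusted p = 0.0183), where 0.138% of all strains were higher. The strains without GLN3 and without URE2 thus moved in opposite directions in that medium. URE2 was lower in PBprot FCCP at 1.53 ± 0.68 (limma adjusted p = 0.000297), as 1 of 11 tested strains, where 79 of all 4015 were. The list gave no other call in any medium.

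Similarity of pattern was described by Pearson's r of the median FD scores over 16 conditions in YKOaux and 19 in each of the others, which share control arrays, and no p is given. In PBprot RTG2 was the strain most like RTG1 of 3950 (r = 0.86), followed by HIS6 (0.84), MHF2 (0.83), MKS1 (0.82) and HIS4 (0.82). RTG1 was in turn the second for RTG2, after MHF2 and ahead of MKS1 (0.85). In YKOaux the same pair had r = 0.64, and RTG1 was 29th for RTG2. Spearman's rho with RTG1 in PBprot was 0.63 for RTG2, 0.5 for HIS6, 0.59 for MHF2, 0.48 for MKS1 and 0.17 for HIS4. The likeness of HIS4 by Pearson's r was thus not borne out by ranks.

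For GDH1 the glucose-6-phosphate dehydrogenase strain ZWF1, which lacks the first enzyme of the pentose phosphate pathway, was the most similar strain in YKOaux and PBprot, with r = 0.89 in both, and the fourth in BCprot, with r = 0.77. PHA2, of phenylalanine synthesis, was among the 5 most similar in all 3 collections (0.87, 0.71 and 0.79). Spearman's rho was lower for these pairs, at 0.63, 0.72 and 0.20 for ZWF1 and 0.42, 0.02 and 0.39 for PHA2 in YKOaux, PBprot and BCprot, so the likeness by Pearson's r was not borne out by ranks for PHA2 in PBprot or ZWF1 in BCprot. In BCprot GLT1 had r = -0.76 with GDH1, which was the strain least like GLT1 among the 3746. The strains most like GLN3 were SAS4 in YKOaux (0.90), YDL041W in PBprot (0.85) and IOC3 in BCprot (0.89), and those most like GLT1 were MCH1 (0.86), HRD3 (0.68) and YBR196C-B (0.88). RTG2 in YKOaux was most like HOB2 (0.79), RTG1 most like YLR349W in YKOaux (0.78) and PHA2 in BCprot (0.74, Spearman's rho 0.36).

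Over all groups of a set, ordered by mean level, 16 of 257 neighbouring groups of a member differed by more than both of their SDs. MM stood last by such a gap for GDH1 in all 3 collections, for RTG1 and RTG2 in PBprot and for GLN3 in YKOaux. The gap to the next medium was 0.89 for GDH1 in YKOaux (TRP-), 0.81 in BCprot (LYS-) and 0.31 in PBprot (ADE-), 1.10 for RTG1 and 0.86 for RTG2 (SER- for both), and 0.55 for GLN3 (GLN-). At the other end, GLN3 in YKOaux was highest in CCCP, at 11.24 ± 0.08 (SD, n = 3), then in YPG, at 11.09 ± 0.06 (SD, n = 2), of the YPD-based media. For GLT1 no neighbouring groups were so far apart. This ordering was not made for the other strains, so it does not show whether such gaps are particular to the members.

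The arrays of the pools before growth were normalised apart from the rest, so their levels are given on their own. The RTG1 downtag averaged 10.33 ± 0.27 in YKOaux, 10.83 ± 0.38 in PBprot and 10.40 ± 0.32 in BCprot (SD, n = 5 each). The RTG2 downtag was at 9.08 ± 0.32, 10.72 ± 0.37 and 8.60 ± 0.15 in the same order of collections. The RTG3 uptag was at 7.66 ± 0.25 in YKOaux, but at 6.16 ± 0.17 in PBprot and 5.94 ± 0.39 in BCprot, so this strain was already near background in both haploid pools at the start. The GDH1 downtag was at 8.37 ± 0.33, 9.25 ± 0.26 and 8.78 ± 0.31 in the same order of collections.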

How the data were processed

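Deposited values were taken as they stand: log2 intensities of 10198 tags (5019 strains with 2 tags, 160 with 1) on 236 TAG4 arrays, per the labels and the methods. According to the methods, the authors averaged replicate features of each tag, masked array artefacts and normalised uptags and downtags separately to a common median within each of 6 sets (YKOaux, PBprot and BCprot, each in SC-based and YPD-based media). ComBat batch correction is named in the methods, and whether the deposited values include it is not given in the sources used here.

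In each set, a 2-component Gaussian mixture on the control arrays gave the background threshold (posterior over 0.5). Of the tags present in every control array, the one with the lowest coefficient of variation was used. The methods ask for every tag of a strain to be present, which was run as an alternative. limma 3.58.1 (R 4.3.3, lmFit and eBayes) was fitted with 1 mean per group over all arrays of a set, and p-values were adjusted by the Benjamini-Hochberg method over all strains tested in a comparison. Differences between collections and between media are contrasts of the same kind of fit. The mean differences, their SEs and 95% intervals come from that fit. FD scores are medians, except with the replicate number as a block, where the fitted mean difference was used as the score. The procedure was tested on simulated data. MM+URA, with 1 array, is given as values only. T0 arrays, which carry other batch labels, entered no test. Of the BCprot arrays, 2 whose title and growth protocol name different media were left out of all groups. No pair of arrays held identical values (highest r 0.994).

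Members and lists were chosen with earlier results of these data known. Named are all members in every comparison, the strains of the 3 lists called in at least 1 comparison, and the 5 strains most like a member, of which the text gives the first or those it discusses. The call of 1 further strain of the lists is not reported here. The alternatives without the replicate 1 arrays of the SC-based media and without the YPD and YPD+DMSO arrays that stood apart were chosen after seeing the data. Replicate numbers paired the arrays in the dropout media and in none of the MM or YPD-based comparisons. Pairing asked for a correlation over 0.1 in each of 3 or more pairs. It was met in 8 of 8 YKOaux, 12 of 12 PBprot and 1 of 1 BCprot dropout media with that many pairs. In MM the correlations ran from 0.0905 to 0.772 in PBprot, 0.0794 to 0.529 in BCprot and -0.221 to -0.00977 in YKOaux.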

Additional observations from a re-analysis of the deposited data

Results flagged for a closer look

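In 9 of 78 groups of 4 to 10 arrays, the value of 1 array of a member lay far from the rest by Dixon's test, which chance gives in about 1 of 20 groups. Of these, 5 were RTG2 downtag values. In PBprot it was at 8.31 in MM replicate 1, against 9.28 to 9.43 in the other MM arrays, and at 10.34 in SC replicate 1, against 10.93 to 10.99 in the other SC arrays. In YPD+DMSO it was at 10.02 in YKOaux replicate 9 (others 8.75 to 9.36), 11.31 in PBprot replicate 4 (others 10.52 to 10.87) and 10.73 in BCprot replicate 7 (others 8.48 to 9.36). For the GLN3 downtag, PBprot YPD+DMSO replicate 1 was at 10.39 (others 9.08 to 9.57), PBprot YPD replicate 4 at 9.51 (others 9.78 to 10.05) and BCprot CISPLATIN replicate 1 at 8.81 (others 9.42 to 9.50). The GLT1 uptag was at 10.87 in BCprot YPD replicate 2 (others 9.93 to 10.40).

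The effect on GLN3 differed between collections in MM and, without the replicate number as a block, in CCCP. In MM the FD score of PBprot minus that of YKOaux was -1.10 (limma adjusted p = 0.000279), and in CCCP the score of BCprot minus that of YKOaux was 1.17 (limma adjusted p = 0.0211, and 0.0791 with the block). The collections differ in ploidy, marker genotype and, for MM, supplements, which cannot be told apart here.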

How the results depend on the processing

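Among 14 alternatives, depletions (YKOaux 1, PBprot 2, BCprot 1) and increases (YKOaux 1, PBprot 0, BCprot 0) moved as follows. PBprot depletions were 1 with every tag of a strain present, with uptags only and with only the arrays of the comparison in the fit. BCprot depletions were 2 with presence from the mean over controls and with no presence filter, where 1 increase also appeared (RTG2 in THR-, -1.29), and 0 with the mean of the present tags, with uptags only and with only the arrays of the comparison. YKOaux depletions were 0 with downtags only and without the replicate 1 arrays, and its increases were 2 with the mean of the present tags and with uptags only, which add GLN3 in FCCP. With 1 array left out in turn, depletions ranged from 0 to 1 in YKOaux, 1 to 2 in PBprot and 0 to 1 in BCprot, increases stayed at 1, 0 and 0, differences between collections stayed at 2 and those between media ranged from 8 to 16, against 12. Among the values of named members under the alternatives, 8 lost a call, 6 gained one, 0 changed sign and the others kept direction and side of the threshold. RTG2 in PBprot MM (1.55 to 2.57) and GLN3 in YKOaux CCCP (-1.74 to -1.05) kept theirs under all 14. The causes were not tested.

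With the replicate block the depletions were 1 in YKOaux, 2 in PBprot and 2 in BCprot, where RTG1 in MM came to 1.64 (adjusted p = 0.017), and differences between collections came to 4, all PBprot minus YKOaux in MM (GLN3, RTG2, RTG1 and GDH1), while that of GLN3 in CCCP, BCprot minus YKOaux, was lost (1.11, adjusted p = 0.0791). That count of differences was 1 with every tag present in both sets. The replicate block changed no other depletion or increase. Dim tags, such as those of RTG3, had little room to fall. With 2 to 4 treatment arrays, a score of about 1 did not pass the test where the control arrays spread widely, as for RTG1 in YKOaux MM.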

Other observations

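On the 2 BCprot arrays left without a group, the RTG1 downtag was at 11.04 on array 1 and 10.32 on array 2, the RTG2 downtag at 8.16 and 7.68, the RTG3 uptag at 6.86 and 6.45, the GDH1 downtag at 9.81 and 9.75, the GLT1 downtag at 10.25 and 10.34 and the GLN3 uptag at 8.70 and 9.03.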
